A study of Drosophila melanogaster with 18 samples.

Results

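The genes described here encode structural proteins of the insect cuticle. They were taken from the gene table by symbol: every gene whose FlyBase symbol begins with Cpr or Lcp and a digit, or with Ccp84, Acp65A, Pcp, Edg or Twdl, except the corneal lens genes Cpr66D and Cpr72Ec. Such a symbol is borne by 123 of the 17558 genes counted, and the 70 with at least 20 counts summed over the 18 libraries are the members. Of the other 53 genes, 15 had 0 counts. At the edge of this minimum, TwdlX, Ccp84Ag and Cpr64Ab had 19 counts each and were left out, and TwdlV and Cpr47Eb had 20 each and were kept.

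The cuticle of a fly is a layered material of chitin fibres and proteins that epidermal cells secrete at their outer face and replace at each moult. Most proteins of the Cpr, Lcp, Ccp84A, Acp65A, Pcp and Edg genes carry the Rebers-Riddiford motif, which binds chitin, while those of the Tweedle (Twdl) genes form an insect family of their own, named for an allele of TwdlD that makes the body short and squat. Many of these genes are known for bursts of expression in a single life stage, as the names for larval (Lcp), pupal (Pcp), adult (Acp65A) and ecdysone-dependent (Edg) genes recall, and in an adult head they can be expressed by the epidermis under the cuticle, by its bristles and by cells that line the foregut and the tracheae.

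The libraries come from heads of adult Drosophila melanogaster, males and females together, whose age is not given in the sources used here. Wild type was w1118, and Δmimi flies lacked a stretch of the mimi gene removed with CRISPR (mimi is a noncoding RNA found in granules of neurons). In each of 3 preparations per genotype, whole flies were broken up in a blender, their heads were collected with sieves, and the ground and strained heads made up the tissue lysate. The cleared lysate was divided and spun. A pellet collected directly was granules 1, and a parallel pellet that was also washed was granules 2, so there were 6 groups of 3 libraries. A preparation pooled very many heads and held cuticle, eye, brain, muscle and fat body together. In such bulk samples, fewer cells of a type and less RNA per cell cannot be told apart.

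Total counts per library ranged from 3635256 to 7798946. Counts of mimi were 7090 to 18379 in wild-type libraries and 30 to 113 in Δmimi libraries, so the genotype labels held in all 18 libraries. The tissue matched its label, with 7 photoreceptor genes at a summed level of 28720 to 49990 CPM (counts scaled to a common library size after TMM normalization) and 5 neuronal genes at 1072 to 2046 CPM. Of 9 eggshell and ovary genes the summed level was 11.3 to 33.5 CPM in wild type and 25.8 to 139 CPM in Δmimi.

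Cpr genes held nearly all of the signal. Of the 68 Cpr genes 43 were members, and these took 204056 of the members' counts, against 3007 for 16 of 26 Twdl genes, 5794 for Pcp, 2039 for Acp65Aa, 274 for 4 of 17 Lcp genes, 177 for 3 of 7 Ccp84A genes and 132 for 2 of 3 Edg genes. The 5 most abundant members, Cpr49Ag, Cpr67B, Cpr49Ae, Cpr65Au and Cpr62Bb, held 64.1% of the members' counts, and the top 12 held 87.4%. Counts were above 0 in all 18 libraries for 38 members, and never above 5 in any library for 4. Per kilobase of exons, which makes levels comparable between genes, the order in wild-type lysate began with Cpr65Au at 490 CPM per kilobase, Cpr67B at 265.2, Cpr49Ag at 188 and Cpr49Ae at 97.8. Pcp followed Cpr49Ab in this order with 79.04 CPM per kilobase. So the pupal cuticle protein gene ranked above most Cpr genes in these adult heads.

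Members lie in arrays, with 19 on chromosome arm 2R, 23 on 3L, 21 on 3R, 4 on X and 3 on 2L (positions from the BDGP6 assembly). The Cpr49A array on the plus strand of 2R runs from Cpr49Aa (FBgn0050045, 12376626 to 12377378) through Cpr49Ae (FBgn0033728, 12402216 to 12405108), Cpr49Af (FBgn0033729, 12405932 to 12407045) and Cpr49Ag (FBgn0033730, 12407793 to 12408523) to Cpr49Ah (FBgn0033731, 12413962 to 12415170). On the minus strand of 3L stand Cpr62Ba (FBgn0035279, 1824129 to 1831783), Cpr62Bb (FBgn0035280, 1832636 to 1835164) and Cpr62Bc (FBgn0035281, 1840281 to 1842084). Near-identical copies, such as the Lcp65Ag and some Ccp84A and Twdl genes, can lose or share reads in counting, and their values are uncertain. Exons overlap those of a gene on the opposite strand for 6 members: TwdlE, Cpr73D, Cpr65Au, Cpr67Fb, Cpr47Ea and Lcp65Ag3. The counting is not stated to use strand, so these values are uncertain as well.

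The preparations differed in cuticle RNA, and for many members, though not for all, they did so alike in both genotypes. Of the 33 members with a mean count above 10, the libraries numbered 2 had the highest level in all 6 groups for 19 (57.6%), against 10.3% of 9743 genes at this depth. Replicate 1 was highest in all 6 groups for 0 members (8.28% of all genes) and replicate 3 for 0 (3.22% of all genes). Cpr97Ea had 2, 286 and 12 counts in wild-type lysates 1, 2 and 3, and 3, 372 and 40 in Δmimi lysates. Its granules 1 libraries showed the same order, with 8, 215 and 16 counts in wild type and 15, 348 and 74 in Δmimi. Acp65Aa, the adult cuticle protein gene, had 8, 333 and 14 counts in wild-type lysates and 19, 361 and 38 in Δmimi lysates. Thus its counts came almost wholly from the preparations numbered 2 in either genotype, 85.9% of them over all 18 libraries.

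Averaged over the 3 fractions, the level in replicate 2 exceeded the mean of the other replicates 44.1-fold in wild type and 29.3-fold in Δmimi for Cpr49Ac. This ratio was 18.6 and 10.5 for Cpr97Ea, 17.5 and 9.23 for Acp65Aa, 7.69 and 8.80 for Cpr100A, and 3.43 and 3.55 for Cpr97Eb. Among abundant members it was smaller, as for Cpr67B with 1.25 and 1.53 or Cpr65Au with 1.36 and 1.40. The muscle list moved with the same libraries: its 7 genes summed to 20580 to 32250 CPM in libraries numbered 2 and to 6439 to 12020 CPM in the others. All of its 7 genes were above 0 in each group. Their part in the replicate pattern of the cuticle genes was not tested.

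A second set of members was counted almost wholly in the preparations numbered 1. TwdlM had 12, 0 and 0 counts in wild-type lysates and 34, 0 and 0 in Δmimi lysates. TwdlD, the gene of the squat-body allele, had 30, 0 and 0 counts in Δmimi granules 1 and 4, 0 and 0 in wild-type granules 1. All 47 counts of TwdlB and all 37 of TwdlL fell in libraries numbered 1. These low-count Tweedle genes were thus not detected in most libraries at this depth, whereas TwdlG, TwdlT, TwdlE and Twdlbeta were counted in every one. In total 11 members had over 60% of their counts in replicate 1, 17 in replicate 2 and 1, Cpr67Fb, in replicate 3, while these numbers held 36.7%, 35.2% and 28% of all counts. The share of all genes with over 60% in 1 number was not computed, and several of these members had few counts. So these numbers of members are a description only. TwdlS and Ccp84Aa belonged to the set of replicate 2, with 83.3% and 94.4% of their counts there. For TwdlS this share rested on wild type, with 2, 33 and 5 counts by replicate number, against 0, 2 and 0 in Δmimi. These members were singled out after their values had been seen.

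**Figure D1:**
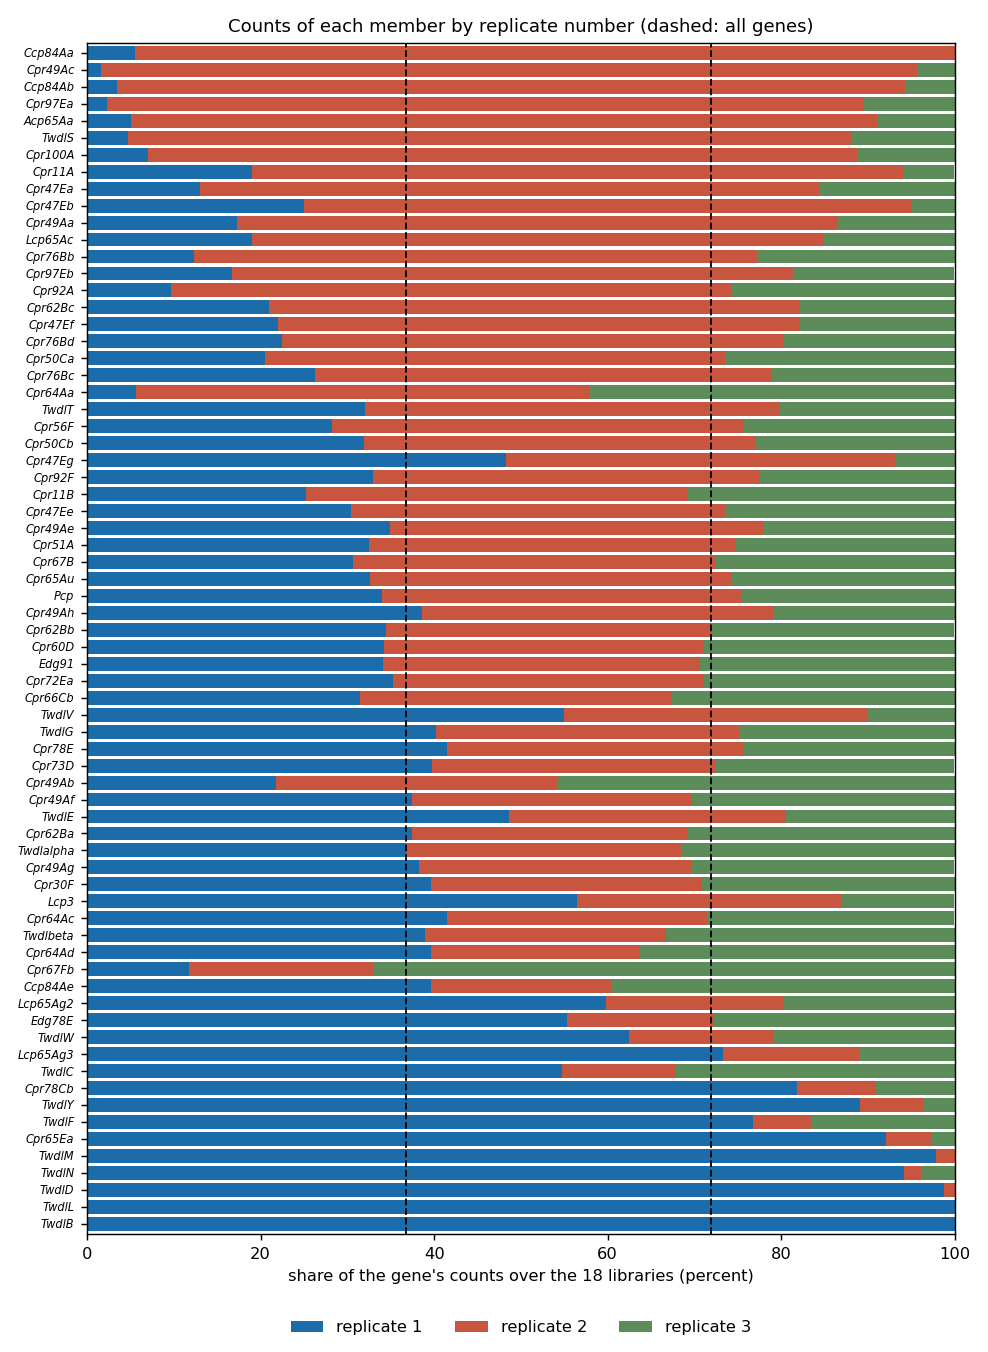
Share of each member's counts, in percent on the horizontal axis, that fell in the libraries numbered 1, 2 and 3, for all 70 members (rows); dashed lines mark the shares of all counts, 36.7% and 35.2% for replicates 1 and 2. A run of members at the top lies mainly in replicate 2, such as Cpr97Ea with 87.2%, and a run at the bottom in replicate 1, such as TwdlM with 97.8%.

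The question of the fractionation was which RNAs go with the granule pellet. Summed over the 70 members, the level rose from lysate to granules in each preparation. It was 1020, 1931 and 1077 CPM in wild-type lysates and 2341, 2715 and 2345 CPM in granules 1, with means of 1343 ± 510 and 2467 ± 215 CPM (SD, n = 3). In Δmimi the lysates had 1055, 2274 and 1291 CPM and granules 1 had 2109, 2901 and 2176 CPM, with means of 1540 ± 646 and 2395 ± 439 CPM (SD, n = 3). The lysate and granule ranges did not overlap in wild type, but they did in Δmimi, where lysate 2 lay above granules 1 of preparations 1 and 3.

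In wild type 9 of 32 tested members were higher in granules 1 than in lysate (28.1%), while 4.82% of all 9740 genes tested were higher. None was lower, against 3.36% of all genes, by the quasi-likelihood F test (QLF) of edgeR with Benjamini-Hochberg adjustment. At an unadjusted p under 0.05 there were 12 members in either direction, beside 2579 of all 9740 genes, and DESeq2 called 9 higher and 1 lower. For counts by DESeq2 no share over all genes is given here. Calls required a log2 fold change beyond 0.5 in size with an adjusted p below 0.05, and genes were tested when their mean normalized count in the fit was above 10. In Δmimi 4 of 36 members were higher (11.1%; 2.65% of all genes) and 0 were lower (2.00% of all genes), with 6 higher and 0 lower in DESeq2. Of these 36, 9 had an unadjusted p under 0.05, as had 2246 of all 9729 genes. Granules 2 gave 7 higher (5.43% of all genes) and 1 lower (4.06% of all genes) of 29 in wild type. In Δmimi granules 2, 3 of 35 were higher (2.43% of all genes) and 0 lower (1.90% of all genes), and DESeq2 called 6 higher and 1 lower. Of these 35, 9 had an unadjusted p under 0.05, as had 2202 of all 9762 genes. The median log2 fold change of members in granules 1 was 0.22 in wild type and 0.16 in Δmimi, beside medians of -0.04 and -0.03 over all genes tested. Both granule comparisons of a genotype share its 3 lysates.

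Each granule library came from the lysate of the same number, and with the preparation as a block more members passed. Blocked, 12 of 32 were higher and 1 was lower in wild-type granules 1, while 7.30% and 9.45% of all genes were. In Δmimi granules 1 the blocked counts were 11 of 36 higher and 1 lower (5.54% and 8.66% of all genes). Granules 2 gave 11 higher and 1 lower in either genotype, beside 7.94% and 10.1% of all genes in wild type and 6.32% and 8.51% in Δmimi. So the single lower member lay under the share of all genes in each of these fits. Taking each granule library over its own lysate, 10 of 31 members counted in every library were higher in granules 1 in all 6 preparations (32.3%; 20.5% of all genes), and only Cpr65Au was lower in all 6 (3.23%; 21.7% of all genes). For granules 2 these counts were 12 higher (38.7%; 21.0% of all genes) and 2 lower, Cpr65Au and Cpr60D (6.45%; 23.2% of all genes).

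In the Cpr49A array 3 neighbouring genes, Cpr49Af, Cpr49Ag and Cpr49Ah, were called higher in wild-type granules 1. Cpr49Ag, the most abundant member, had 127, 135 and 104 CPM in wild-type lysates and 753, 634 and 772 CPM in granules 1. In Δmimi it had 73.9, 94.6 and 61.4 CPM in lysates and 449, 398 and 465 CPM in granules 1. Every granule library lay far above every lysate of its genotype, a log2 fold change of 2.54 in wild type (SE 0.15, QLF adjusted p = 0.000161) and 2.51 in Δmimi (SE 0.17, QLF adjusted p = 0.000585). Its neighbour Cpr49Af rose by 2.24 in wild type (SE 0.14, QLF adjusted p = 0.000206), from 8.53, 9.22 and 9.26 CPM to 43.0, 37.3 and 48.6 CPM. In Δmimi Cpr49Af rose by 2.44 (SE 0.25, QLF adjusted p = 0.0032), from 4.20, 4.92 and 2.27 CPM to 20.9, 19.6 and 22.2 CPM. Both calls of Cpr49Ag and the wild-type call of Cpr49Af held whichever preparation was left out, and the Δmimi call of Cpr49Af was lost without replicate 1 (2.52) and without replicate 3 (2.15).

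Cpr49Ah, at the downstream end of the array, had 19, 24 and 9 counts in wild-type lysates and 88, 103 and 68 in granules 1, a log2 fold change of 2.46 (SE 0.26, QLF adjusted p = 0.00182). The call was lost without replicate 1 (2.49). In Δmimi its change was 1.80 and was not called (SE 0.45, QLF adjusted p = 0.069), but it was called with the preparation block (QLF adjusted p = 2.59e-06). Cpr49Ae had 78.0, 211 and 59.0 CPM in wild-type lysates and 256, 299 and 240 CPM in granules 1. The lysate of preparation 2 stood well above the others, and with all 3 preparations the change of 1.17 passed with the block and not without it (SE 0.44, QLF adjusted p = 0.000397 and 0.144). In Δmimi the values were 84.5, 226 and 66.7 CPM in lysates and 336, 388 and 272 CPM in granules 1 (QLF adjusted p = 4.43e-08 with the block and 0.107 without it). Those upstream genes of the array that were tested were not called in granules 1. Cpr49Ab, the fifth member per kilobase, changed by -0.19 in wild type (SE 0.30, QLF adjusted p = 0.741) and by -0.33 in Δmimi (SE 0.56, QLF adjusted p = 0.772), and Cpr49Ac by 0.23 and -0.01, with standard errors of 1.41 and 1.51 across the uneven preparations.

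**Figure D2:**
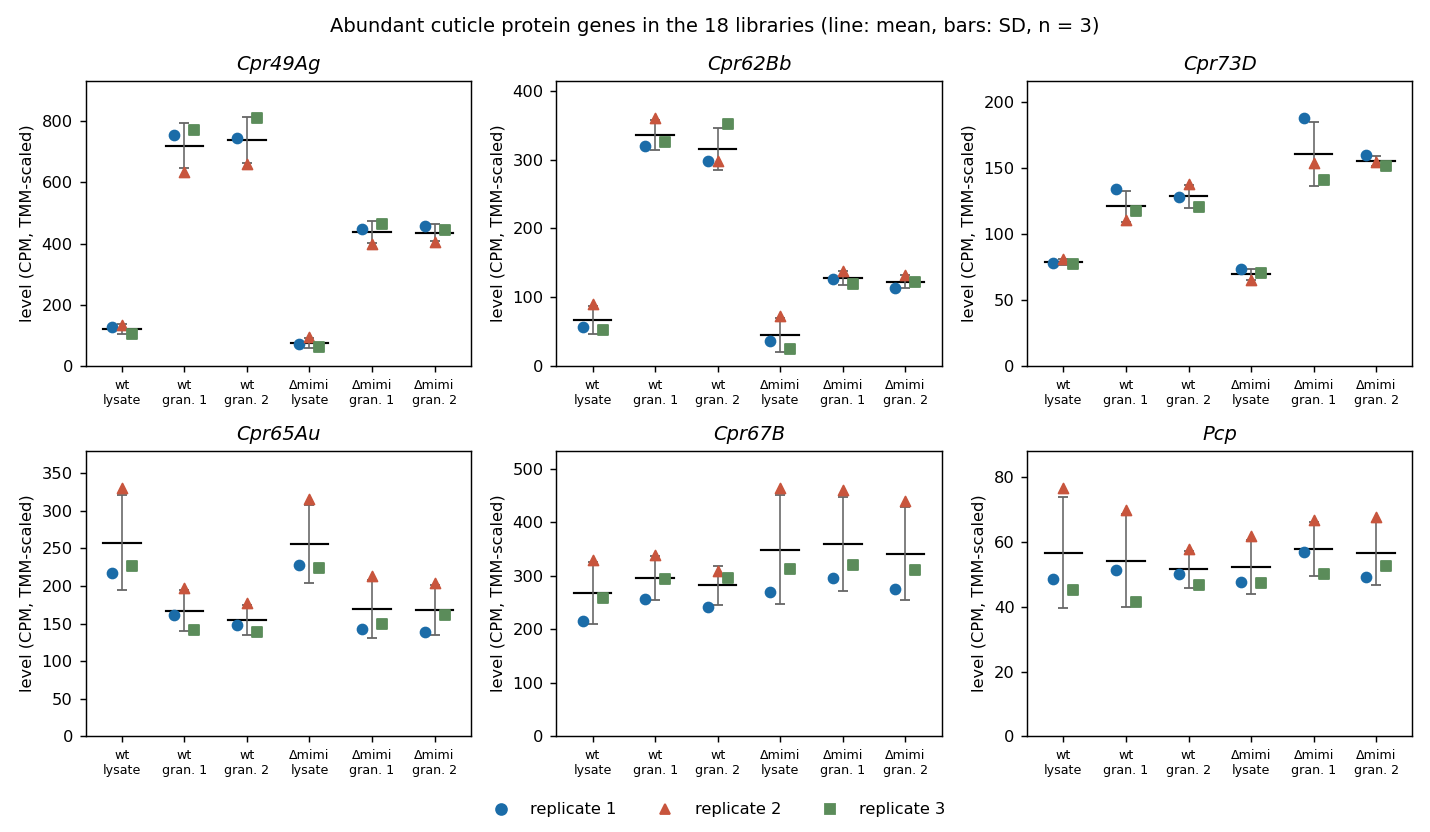
Level in CPM (vertical axis, from 0) of 6 abundant members in each library, by group on the horizontal axis; symbols mark replicates 1, 2 and 3, lines the mean and bars the SD (n = 3). Cpr49Ag, Cpr62Bb and Cpr73D lie higher in granules than in lysates, Cpr65Au lower, and Cpr67B and Pcp keep to the order of the replicates, with replicate 2 highest in each group.

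In the 62B array Cpr62Bb had 57.6, 90.2 and 52.7 CPM in wild-type lysates and 320, 360 and 326 CPM in granules 1, a rise of 2.31 (SE 0.22, QLF adjusted p = 0.00106). In Δmimi it went from 37.3, 72.6 and 24.9 CPM to 127, 139 and 119 CPM, a rise of 1.51 near the threshold (SE 0.34, QLF adjusted p = 0.0499). The wild-type call was lost without replicate 3 (2.19), and the Δmimi call without replicate 1 (1.40), without replicate 3 (1.28) and with DESeq2's size factors in edgeR (1.53). Cpr62Ba was lower in level and rose by 1.76 in wild type (SE 0.25, QLF adjusted p = 0.00658), from 17, 15 and 10 counts to 53, 42 and 34, while in Δmimi it went from 23, 20 and 22 counts to 32, 22 and 38 and was not called (0.55, SE 0.27, QLF adjusted p = 0.27). Cpr62Bc behaved by preparation. Its wild-type lysates had 2.75, 23.8 and 2.75 CPM and its granules 1 had 14.9, 27.9 and 15.9 CPM, so the log2 ratio within a preparation was 2.44, 0.23 and 2.54. In Δmimi these ratios were 2.37, 0.09 and 1.93. Blocked, Cpr62Bc was called in either genotype (QLF adjusted p = 0.0163 and 0.00507), and unblocked, with all preparations, in neither (0.474 and 0.719).

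Cpr62Bc was not alone in this. Cpr92F had log2 ratios of granules 1 over lysate of 3.08, 1.53 and 3.09 in wild-type preparations 1, 2 and 3, and of 3.22, 1.19 and 3.15 in Δmimi. Cpr76Bd had 1.54, -0.06 and 1.26 in wild type and 2.89, 0.56 and 1.95 in Δmimi, and Cpr97Eb had 1.49, -0.21 and 0.92 and then 2.03, -0.15 and 1.19. In each of these the lowest ratio was that of preparation 2, whose lysate was also the highest. Cpr92F rose by 2.21 in wild type (SE 0.53, QLF adjusted p = 0.0423), with lysates of 9.22, 36.7 and 8.75 CPM and granules 1 of 78.1, 106 and 74.7 CPM. In Δmimi its change of 2.01 had a QLF adjusted p of 0.123 without the block (SE 0.66) and of 1.27e-07 with it. The count of members higher in wild-type granules 1 was 14 without replicate 2 (6.74% of all genes), but 3 without replicate 1 (1.13%) and 3 without replicate 3 (0.5%). In Δmimi these counts were 8 (1.13% of all genes), 2 (0.465%) and 1 (0.144%).

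Cpr73D (FBgn0036680, chromosome 3L, 16939100 to 16957689) was called in all 4 granule comparisons, as were Cpr49Ag and Cpr49Af. It had 78.0, 81.4 and 77.2 CPM in wild-type lysates and 134, 111 and 118 CPM in granules 1, and in Δmimi 73.5, 65.2 and 70.9 CPM and 188, 154 and 141 CPM. The groups did not overlap in either genotype, and the rises were 0.61 (SE 0.11, QLF adjusted p = 0.0157) and 1.2 (SE 0.13, QLF adjusted p = 0.0037). Of its 3030 exonic bases 294 overlap Ogdh on the opposite strand, which changed by -0.04 (SE 0.14, QLF adjusted p = 0.906). Cpr72Ea was called in wild type on few reads, with 5, 2 and 2 counts in lysates and 22, 25 and 12 in granules 1 (2.79, SE 0.46, QLF adjusted p = 0.0118). It passed the minimum of 10 through the granule libraries, so its place among the 9 called members is a description only. Cpr50Cb rose by 1.65 in wild type (SE 0.41, QLF adjusted p = 0.0486) and by 1.55 in Δmimi, where it passed with the block and in DESeq2 (SE 0.43, QLF adjusted p = 0.0877 without and 2.93e-06 with the block, DESeq2 adjusted p = 0.00874). In wild-type granules 1 the calls of Cpr73D, Cpr72Ea, Cpr92F, Cpr62Ba and Cpr50Cb each held without replicate 2 and were lost without replicate 1 (0.52, 3.22, 1.95, 1.71 and 1.44) and without replicate 3 (0.61, 2.88, 1.99, 1.75 and 1.58). The Δmimi call of Cpr73D was lost without replicate 3 (1.30).

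Cpr30F was too low for these tests, with 0 counts in all wild-type lysates and 10, 4 and 6 in granules 1, and with 1, 1 and 0 counts in Δmimi lysates and 22, 15 and 13 in granules 1. With a base mean above 1 in place of 10 it was called higher in granules 1 of wild type (QLF adjusted p = 0.0364) and of Δmimi (QLF adjusted p = 0.00861). It passed this lower minimum through the granule libraries, where it was high, so these calls are a description only. It was the only further member called in granules 1 among 30 and 29 members that this lower minimum added.

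Cpr65Au ran against the others. Its wild-type lysates had 217, 330 and 226 CPM and its granules 1 had 162, 197 and 142 CPM, and in Δmimi these levels were 228, 315 and 224 CPM and 143, 213 and 150 CPM. Every granule library lay below every lysate. The change was -0.64 in wild type (SE 0.20, QLF adjusted p = 0.0917) and -0.60 in Δmimi (SE 0.20, QLF adjusted p = 0.128), and was called when blocked (QLF adjusted p = 0.000158 and 3.3e-07). With a correction for exon length added to the block, the changes were -0.20 and -0.16 and neither was called. In wild-type granules 2 it was called lower without the block (-0.73, SE 0.19, QLF adjusted p = 0.0475), but this call was lost without replicate 1 (-0.82) and without replicate 3 (-0.77), and with the block and a correction for exon length the value was -0.25. Cpr65Au has 526 exonic bases, of which 491 overlap an antisense RNA, asRNA:CR46005, that had 0 to 5 counts in every library. Longer RNAs tended to be higher in the pellet over all genes, with a Spearman correlation across genes of exon length and log2 fold change of 0.41 in wild-type and 0.51 in Δmimi granules 1, but among members it was 0.08 and 0.28. Genes are not independent replicates, and the median exon length of tested members was 1055 and 1034 bases beside 2134 and 2139 over all genes.

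Abundance alone did not go with the pellet. Cpr67B, second in total counts, changed by 0.13 in wild type (SE 0.18, QLF adjusted p = 0.70) and by 0.04 in Δmimi (SE 0.24, QLF adjusted p = 0.942), and Pcp by -0.08 (SE 0.26, QLF adjusted p = 0.878) and 0.14 (SE 0.16, QLF adjusted p = 0.651). In the Tweedle family TwdlT had 4.82, 7.75 and 3.43 CPM in wild-type lysates and 9.52, 15.1 and 7.51 CPM in granules 1 (0.98, SE 0.36, QLF adjusted p = 0.139 without and 0.00114 with the block). TwdlG changed by -0.34 (SE 0.18, QLF adjusted p = 0.268). All other Twdl members, all Lcp and Ccp84A members and both Edg members stayed under the base mean in wild-type granules 1 and were not tested there. Summed over the 16 Tweedle members the level was 26.4 ± 5.48 CPM in wild-type lysates and 29.8 ± 7.81 CPM in granules 1 (SD, n = 3).

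**Figure D3:**
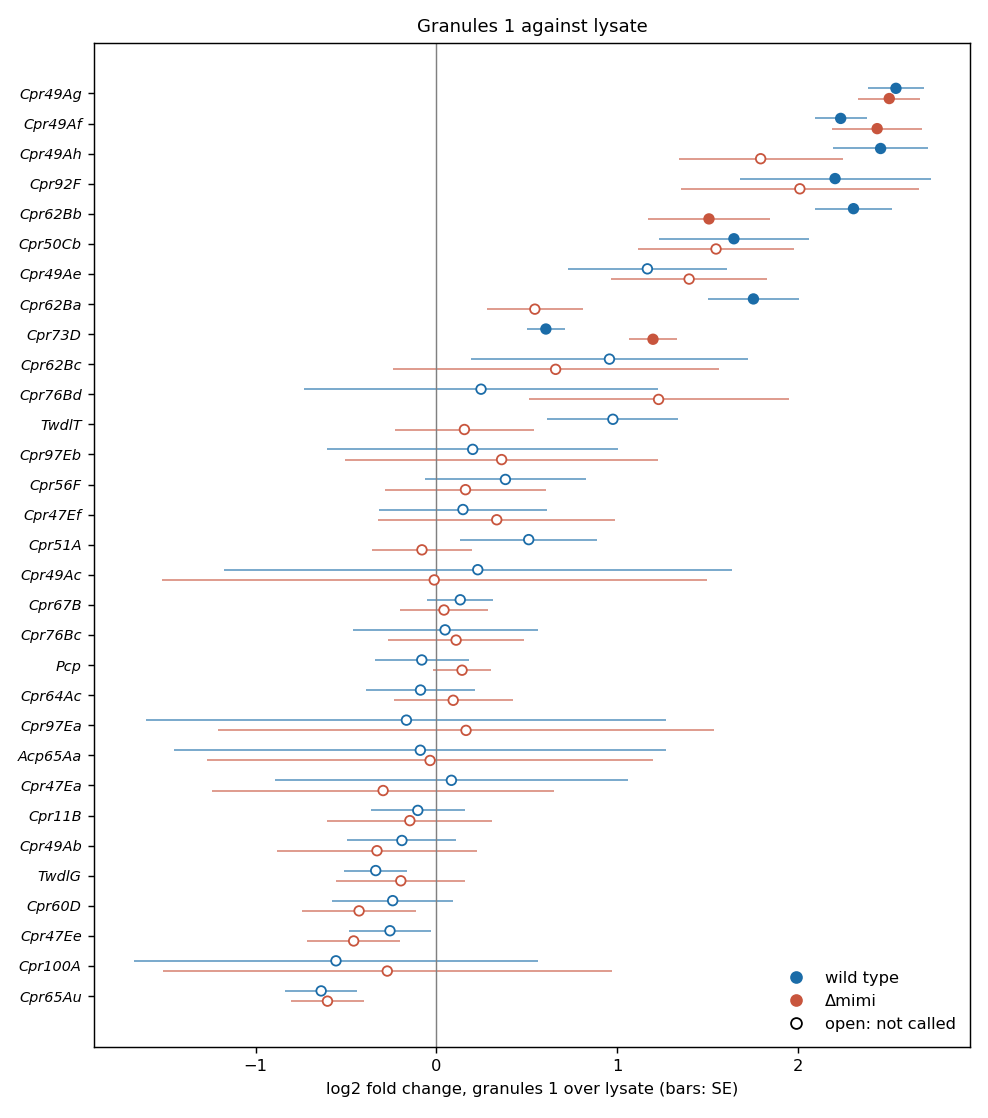
Log2 fold change of granules 1 over lysate (horizontal axis) for the 31 members tested in both genotypes, in wild type (blue) and Δmimi (red), with bars for the SE; filled points were called. Cpr49Ag, Cpr49Af, Cpr62Bb and Cpr73D are filled in both genotypes, and Cpr65Au stands at the bottom with -0.64 and -0.60.

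No tested member was called as changed by washing the pellet, though for some the SE was wide, as for Cpr49Ac (1.12) and Cpr97Ea (0.97). Of 35 tested, 0 were higher and 0 lower in granules 2 than in granules 1 by edgeR (0 and 0% of all 9682 genes), with or without the block. At an unadjusted p under 0.05 there were 0 members, beside 109 of all 9682 genes, and DESeq2 called 0. Lowest in p was Cpr62Ba with -0.21 (SE 0.15, unadjusted p = 0.184, QLF adjusted p = 1). For Cpr49Ag the wild-type group means were 719.6 ± 74.4 CPM without and 738.8 ± 74.3 CPM with the wash, and those of Δmimi 437.4 ± 35.2 and 435.9 ± 27.7 CPM (SD, n = 3).

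The comparison of lysates between genotypes asks how head RNA differs when mimi is lost. Of 34 members tested, 8 had an unadjusted p under 0.05, as had 1357 of all 9771 genes, and DESeq2 called 2 higher and 4 lower. By edgeR 2 of the 34 were higher in Δmimi (5.88%; 0.860% of all genes), Cpr51A and TwdlE, and 0 were lower (0.778% of all genes). Both had a mean count under 10 in wild-type lysates (9.67 for Cpr51A and 3 for TwdlE) and passed the minimum through Δmimi, where they were high, so their share is given as a description only. Paired by replicate number, 15 were higher and 5 lower, while 5.43% and 4.02% of all genes were. These 15 include Cpr51A, TwdlE and also Cpr67Fb, which passed the minimum through Δmimi as well. In granules 1 the counts were 1 higher (2.72% of all genes) and 4 lower (3.03% of all genes) of 36, and 10 higher and 5 lower with the pairing (5.52% and 4.96% of all genes). These 10 include Cpr30F, with 10, 4 and 6 counts in wild-type and 22, 15 and 13 in Δmimi granules 1. They also include Cpr64Aa, with 6, 15 and 8 and then 5, 51 and 64 counts. Both passed the minimum through Δmimi, where they were high, so their paired calls are a description only. These preparations were paired by number because they deviated together across genes, so the blocked calls rest on that pairing.

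Cpr51A (FBgn0033942, chromosome 2R, 14512559 to 14515211) had the largest genotype change among tested members. It had 13, 7 and 9 counts in wild-type lysates and 89, 111 and 77 in Δmimi lysates, a rise of 3.46 (SE 0.29, QLF adjusted p = 0.00178) from 1.42 ± 0.439 to 15.8 ± 3.27 CPM (SD, n = 3). Granules 1 had 14, 16 and 8 counts in wild type and 72, 113 and 65 in Δmimi, a rise of 2.87 (SE 0.34, QLF adjusted p = 0.00384). Genotypes did not overlap in any fraction, and Cpr51A itself was not enriched in the pellet, with 0.51 in wild type (SE 0.38, QLF adjusted p = 0.438) and -0.08 in Δmimi (SE 0.28, QLF adjusted p = 0.895). Of 9 fits that left out preparations, with values of 3.04 to 3.80 in lysates, 8 kept each of these calls, and both calls were lost without replicate 3 of both genotypes (3.58 in lysates and 2.85 in granules 1).

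TwdlE had 5, 3 and 1 counts in wild-type lysates and 26, 26 and 14 in Δmimi lysates (3.04, SE 0.47, QLF adjusted p = 0.0256). Of 9 fits without preparations (2.73 to 3.55) only the one without Δmimi replicate 1 kept this call. Of its 1346 exonic bases 968 overlap lectin-28C on the opposite strand, which had 96, 160 and 159 counts in wild-type lysates and 117, 96 and 192 in Δmimi lysates and was not called (0.19, SE 0.36, QLF adjusted p = 0.897). TwdlG (FBgn0037225, chromosome 3R, 4248723 to 4251341) went down. Its lysates had 17.9, 18.6 and 15.1 CPM in wild type and 8.69, 3.87 and 7.18 CPM in Δmimi, a change of -1.38 (SE 0.28, QLF adjusted p = 0.0722 without and 0.00226 with the pairing). In granules 1 it fell by 1.23 (SE 0.25, QLF adjusted p = 0.0274), from 15.2, 15.1 and 10.9 CPM to 7.69, 4.19 and 5.41 CPM, and the call held only where replicate 3 of wild type or replicate 1 of Δmimi was left out (range over 9 such fits -1.50 to -0.99).

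**Figure D4:**
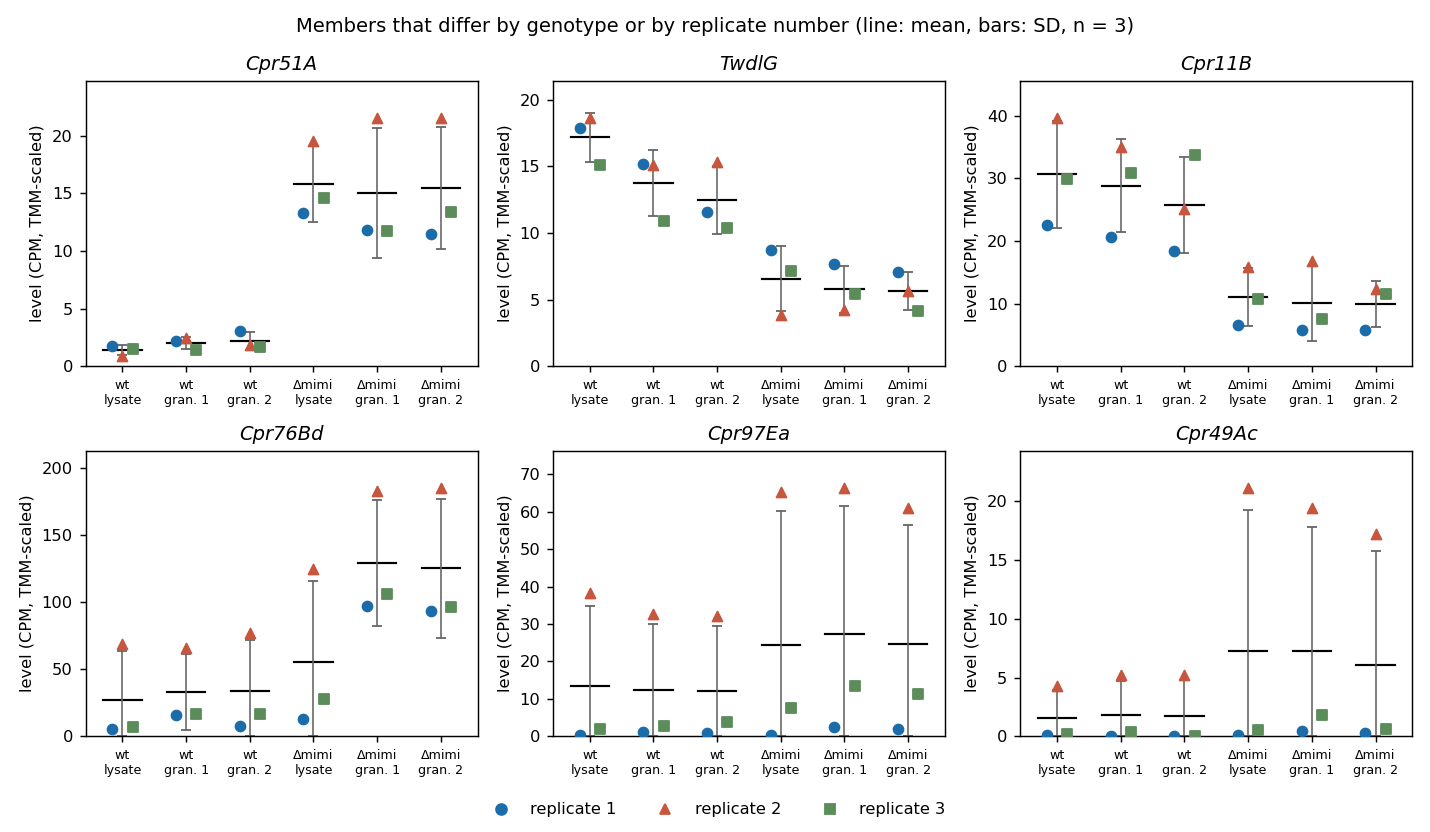
Level in CPM (vertical axis, from 0) of 6 members in each library, by group on the horizontal axis; symbols mark replicates 1, 2 and 3, lines the mean and bars the SD (n = 3), cut off at 0. Cpr51A is higher and TwdlG and Cpr11B are lower in Δmimi in every fraction, while Cpr97Ea and Cpr49Ac are high in replicate 2 of every group and Cpr76Bd joins both patterns.

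Of the array genes, Cpr62Bb, Cpr49Af and Cpr49Ag were called lower in Δmimi. In granules 1 Cpr62Bb fell by 1.37 (SE 0.11, QLF adjusted p = 0.00066), from 335 ± 21.4 to 128 ± 10.3 CPM (SD, n = 3), and this call held in 9 of 9 fits without preparations. Cpr49Af fell by 1.02 (SE 0.14, QLF adjusted p = 0.00543), from 43.0 ± 5.67 to 20.9 ± 1.28 CPM (SD, n = 3), and was lost without replicate 1 (-1.01) or replicate 3 (-0.95) of both genotypes. Cpr49Ag fell by 0.71 (SE 0.12, QLF adjusted p = 0.0139) and was lost on leaving out replicate 1 (-0.67) or 3 (-0.65) of wild type, replicate 2 (-0.63) or 3 (-0.73) of Δmimi, and replicate 1 (-0.68) or 3 (-0.68) of both genotypes. In lysates these genes changed by -0.58 (SE 0.38, QLF adjusted p = 0.594), -1.24 (SE 0.29, QLF adjusted p = 0.097) and -0.68 (SE 0.18, QLF adjusted p = 0.133), all 3 called lower with the pairing (QLF adjusted p = 0.00653, 0.00818 and 0.000325). Their downstream neighbour Cpr49Ah changed by -0.35 in granules 1 (SE 0.27, QLF adjusted p = 0.539) and Cpr49Ae by 0.34 (SE 0.16, QLF adjusted p = 0.278), and neither was called.

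Cpr11B (FBgn0030398, chromosome X, 12553124 to 12554235) had 22.6, 39.6 and 29.9 CPM in wild-type lysates and 6.60, 15.8 and 10.8 CPM in Δmimi lysates. These did not overlap, and the change of -1.48 passed with the pairing and in DESeq2 (SE 0.32, QLF adjusted p = 0.0853 without and 5.47e-05 with the pairing, DESeq2 adjusted p = 0.00108). In granules 1 Cpr11B changed by -1.52 (SE 0.39, QLF adjusted p = 0.0692 without and 0.00107 with it). Within each replicate number Δmimi was lower in both fractions.

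Several members with uneven preparations were called higher in Δmimi with the pairing, and not without it when all preparations entered the edgeR fit. Cpr76Bd had 16, 65.9 and 16.8 CPM in wild-type granules 1 and 97.5, 183 and 106 CPM in Δmimi, a difference of 1.98 (SE 0.56, QLF adjusted p = 0.088 without and 0.000204 with the pairing). Cpr49Ac had 1, 32 and 1 counts in wild-type lysates and 1, 120 and 3 in Δmimi lysates, so that its paired call (2.16, QLF adjusted p = 0.00296) rested on preparation 2. Cpr64Aa had 0, 30 and 2 counts in wild-type lysates and 2, 51 and 36 in Δmimi lysates (1.79, SE 1.26, QLF adjusted p = 0.618 without and 0.0232 with the pairing). Cpr67Fb had 3, 5 and 3 counts and then 2, 13 and 45 (2.70, SE 1.04, QLF adjusted p = 0.305 without and 0.0205 with the pairing), and thus its difference came chiefly from Δmimi preparation 3. It passed the minimum through Δmimi, where it was high, so its paired call is a description only. Most of its exon bases, 389 of 457, overlap an antisense RNA. Cpr49Ab was likewise highest in Δmimi preparation 3, with 39.2, 94.9 and 81.8 CPM in wild-type lysates and 60.6, 110 and 251 CPM in Δmimi lysates. In these same lysates the eggshell and ovary genes summed to 25.8, 76.1 and 78.2 CPM in Δmimi and 12.5, 25.8 and 11.5 CPM in wild type, with 0 of 9 genes at 0 in a group, and their part in these values was not tested. The other members called higher with the pairing in lysates were TwdlT, Cpr47Ea, Cpr47Ef, Cpr62Bc, Cpr76Bd, Cpr97Ea, Cpr97Eb, Cpr100A and Acp65Aa. The muscle genes summed to 9374, 32250 and 12020 CPM in Δmimi lysates and 9069, 25810 and 9252 CPM in wild-type lysates, higher in Δmimi at each replicate number, and their part in these calls was not tested.

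**Figure D5:**
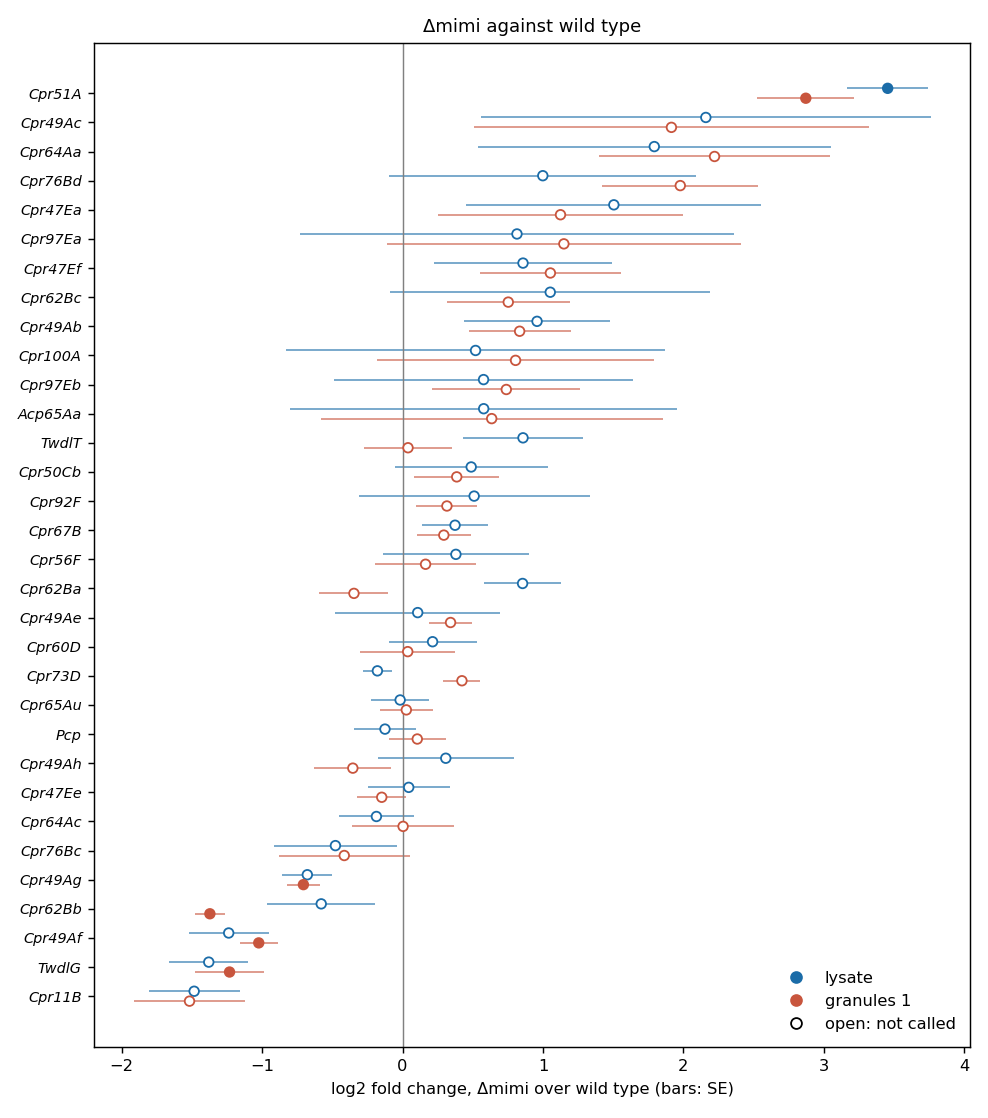
Log2 fold change of Δmimi over wild type (horizontal axis) for the 32 members tested in both fractions, in lysate (blue) and granules 1 (red), with bars for the SE; filled points were called. Cpr51A stands alone at the top with 3.46 and 2.87, Cpr62Bb, Cpr49Af, Cpr49Ag and TwdlG are filled in granules 1 below 0, and members with uneven preparations have the widest bars.

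Whether the pellet takes up members differently without mimi was tested as the difference of both enrichments, Δmimi minus wild type. Of 34 members 0 were called higher (0% of all 9768 genes) and 0 lower (0.0102% of all genes) by edgeR without the block. With the block these counts were also 0 and 0 (0.041% and 0.317% of all genes), and DESeq2 called 0. At an unadjusted p under 0.05 there were 2 members, beside 255 of all 9768 genes. These 2 were Cpr73D, whose enrichment was greater in Δmimi by 0.61 (SE 0.16, unadjusted p = 0.00274, QLF adjusted p = 1), and Cpr62Ba, with -1.19 (SE 0.35, unadjusted p = 0.00518, QLF adjusted p = 1). With the preparation block the adjusted p of Cpr73D was 0.0515, and with the exon length correction as well it was 0.0377. All 3 log2 ratios of Cpr73D in Δmimi, 1.36, 1.24 and 0.99, lay above those in wild type, 0.78, 0.45 and 0.61. For Cpr49Ag this difference was -0.02 (SE 0.23, QLF adjusted p = 1) and for Cpr62Bb -0.78 (SE 0.44, QLF adjusted p = 1).

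Levels of members over the 18 libraries fell into a few sets, described here by Spearman's rho over 528 pairs of the 33 members above a mean count of 10. Cpr67B and Cpr97Ea had the highest rho of 0.96, followed by Cpr49Ag with Cpr49Af (0.96), Cpr100A with Cpr97Ea (0.96), Cpr49Ae with Cpr92F (0.95) and Cpr92F with Cpr50Cb (0.95). The pairs of Cpr97Ea share the high level in replicate 2, and those of Cpr49Ag share the difference between lysate and granules. TwdlG and Cpr51A, which differed between genotypes in opposite directions, had a rho of -0.83, and Cpr65Au and Cpr49Ag one of -0.81. Libraries of a preparation share their source, so these points are not independent.

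Other genes of cuticle formation were followed through lists. Of 24 genes of chitin synthesis, deacetylation and cuticle assembly, 21 were tested in wild-type granules 1 and 1 was called (4.82% of all genes higher), retroactive (rtv), which is needed to organise chitin fibres (0.80, SE 0.20, QLF adjusted p = 0.0463). Their median was 0.25. In Δmimi granules 1 the count by edgeR was 0 of 21, with a median of 0.39, and with the block 8 were called higher in either genotype, beside 7.30% of all genes in wild type and 5.54% in Δmimi. Of the tanning and pigmentation genes 11 were tested in wild-type and 10 in Δmimi granules 1, and 1 was called in either (4.82% and 2.65% of all genes higher). This was Punch (Pu), the GTP cyclohydrolase of pteridine and dopamine cofactor synthesis, with 2.70 in wild type (SE 0.18, QLF adjusted p = 0.000219) and 2.54 in Δmimi (SE 0.18, QLF adjusted p = 0.000701). Between genotypes in granules 1, of 11 tested, Pu was lower in Δmimi (-0.65, SE 0.11, QLF adjusted p = 0.0138) and yellow-h higher (0.80, SE 0.12, QLF adjusted p = 0.00851). Beside these, 3.03% of all genes were lower and 2.72% higher. Of 12 tested moulting hormone and eclosion genes 1 was called in wild-type granules 1 (4.82% of all genes higher), the nuclear receptor gene Hr4 (1.34, SE 0.24, QLF adjusted p = 0.0175). In Δmimi granules 1 the count was 0 of 12 (2.65% of all genes higher). Of 3 tested tracheal and epidermal genes 1 was called higher in granules 1 of either genotype, uninflatable (uif), beside 4.82% and 2.65% of all genes. It rose by 1.2 in wild type (SE 0.22, QLF adjusted p = 0.0185) and 1.22 in Δmimi (SE 0.23, QLF adjusted p = 0.029). Changes above 0 were seen for 2 of the 3 in wild type and for 3 in Δmimi. Burs, which encodes a subunit of the tanning hormone bursicon, had 0 counts in all 6 groups.

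Of the corneal lens genes that were set aside, Cpr66D rose in granules 1 by 2.64 in wild type (SE 0.28, QLF adjusted p = 0.0017) and by 2.39 in Δmimi (SE 0.15, QLF adjusted p = 0.00042). Cpr72Ec rose by 1.48 (SE 0.21, QLF adjusted p = 0.00588) and 2.44 (SE 0.12, QLF adjusted p = 0.000177), and in Δmimi lysates its log2 difference from wild type was -2.05 (SE 0.21, QLF adjusted p = 0.00403). For Cpr66D this difference in lysates was 0.65 and was not called (SE 0.29, QLF adjusted p = 0.391).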

How the data were processed

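The authors depleted ribosomal RNA, made stranded total RNA libraries, mapped them with STAR in snakePipes and counted reads per gene with featureCounts (dm6, Ensembl release 96). The deposited values are whole-number counts per gene, not normalized and not pooled, in 1 table, and 0 of its columns were left unused. The strand setting is not given in the sources used here. Symbols, positions and exon lengths came from Ensembl release 115 by gene identifier (17252 matched, 306 not).

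Groups and replicate numbers came from the labels. Fits used edgeR 4.0.16 (R 4.3.3), TMM, only the groups compared, no covariate (the study names DESeq2 and states none), a base mean above 10 and Benjamini-Hochberg adjustment over all genes tested. Fits gave quasi-likelihood F tests (QLF), and calls required a log2 fold change beyond 0.5 in size at an adjusted p below 0.05. The SE is the absolute log2 fold change over the square root of F. Levels are TMM-scaled CPM over all 18 libraries. The alternatives were DESeq2 1.42.0, its size factors in edgeR, a base mean above 1, a replicate block alone or with an exon length correction by loess (span 0.5), CPM without scaling, and leaving out preparations. Leaving out the same number in both genotypes was added after the data had been seen. The fits were tested on simulated data.

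Same-numbered libraries deviated together from their group means: the correlation over genes was 0.657, 0.726 and 0.296 for lysates between genotypes, 0.511, 0.558 and 0.273 for granules 1, and 0.433 to 0.75 between granules and lysate. Granules and lysate of a number come from the same preparation by the labels, and across genotypes the pairing rests on these correlations. The labels do not say whether preparations were independent cultures, so p-values measure the spread between these samples.

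Named members are the 12 most abundant, every called one, and the 5 with the largest change between genotypes in lysates and between granules 1 and lysate in each genotype, while others were named after their values had been seen. The members and gene lists were chosen with earlier results of these data known. Of the list symbols, 8 were not used here.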

Additional observations from a re-analysis of the deposited data

How the results depend on the processing

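All 31 calls of a member in a comparison kept their direction under every alternative. With DESeq2, a base mean above 1 or the replicate block alone all 31 stayed called. With DESeq2's size factors in edgeR 30 did, as Cpr62Bb in Δmimi granules 1 was lost. With the replicate block and exon length correction 30 did, as Cpr65Au was lost. Of 135 fits without preparations 80 kept the call. The counts of calls follow.

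With the replicate block alone, members called in lysates were 15 higher and 5 lower in Δmimi (2 and 0 without it). With it, 1 was lower in wild-type granules 1 (0 without it), 11 were higher and 1 lower in Δmimi granules 1 (4 and 0), 11 higher in wild-type granules 2 (7), and 11 higher and 1 lower in Δmimi granules 2 (3 and 0). Between genotypes in granules 1, 10 were higher (1). Adding the exon length correction to the replicate block gave 13 higher and 5 lower in lysates, 14 higher in Δmimi granules 1, 12 higher and 0 lower in wild-type granules 2 (7 and 1), 11 higher in Δmimi granules 2, 10 higher between genotypes in granules 1 and 1 for the genotype difference in enrichment, Cpr73D (0). For the length-corrected fits no share of all genes is given here. With the block alone that share also rose, in lysates from 0.860% to 5.43% higher. The block changed no other count by over 1.5 times.

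DESeq2 called 4 lower in Δmimi lysates (0 in edgeR), 1 lower in wild-type granules 1 (0), 6 higher and 1 lower in Δmimi granules 2 (3 and 0), and 2 higher between genotypes in granules 1 (1). No share of all genes is given for these counts.

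Without preparations, lysate calls ranged from 0 to 2 higher and from 0 to 1 lower. Of all genes 0.0611% to 1.91% were then higher and 0.0102% to 0.819% lower. Between genotypes in granules 1 the calls ranged from 0 to 2 higher and from 1 to 4 lower. The shares of all genes there were 0.379% to 2.56% and 0.256% to 2.87%. Granules 1 calls ranged from 3 to 14 higher and from 0 to 1 lower in wild type, and from 1 to 8 higher in Δmimi. Of all genes 0.5% to 6.74% were higher and 0% to 5.08% lower in wild type, and 0.144% to 1.13% higher in Δmimi. Granules 2 calls ranged from 3 to 11 higher and from 0 to 1 lower in wild type, and from 0 to 6 higher in Δmimi. Of all genes 0.754% to 6.10% were higher and 0.0620% to 3.21% lower in wild type, and 0.0916% to 0.862% higher in Δmimi. The summed CPM of the members without scaling stayed within 1 SD in all 6 groups. Low counts limit what can be said of the other members, since 38 of 70 were tested in any comparison.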
